A study of Mus musculus with 6 samples.

Results

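The genes described here are 45 lysosomal genes, chosen by symbol from general knowledge but with earlier results of these data known, out of the 55335 gene identifiers in the expression table. They fall into 21 lysosomal enzymes, 8 other lysosomal proteins, 13 subunits of the proton pump (the vacuolar ATPase, V-ATPase) and 3 transcription factors of the MiT/TFE family. All 45 symbols were found once each, and all 45 had a mean of at least 0.5 FPKM, the level required for testing. FPKM divides the fragments of a gene by its length and by the size of the library.

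The RNA came from BMDMs, macrophages that grow from bone marrow cells under M-CSF, their main growth factor. Marrow of mice with an intact *Cd177* gene was kept for 7 days with 25 ng/ml of it. The BMDMs were then kept for 24 h with neutrophils taken by magnetic sorting from the lesion of injured spinal cord at 3 dpi (days post-injury), and were recovered by flow sorting. In 3 libraries the neutrophils were labelled *Cd177* WT and in the other 3 *Cd177* KO. The study's mice were male, and its methods name adult C57BL/6 mice but do not give the background of the *Cd177* KO mice. BMDMs of both groups carried the same genotype, so the allele of the neutrophils was the stated difference. No library of BMDMs without neutrophils was analysed here, and the question of the comparison was how macrophages differ after contact with neutrophils that lack CD177, a surface protein of neutrophils. The labels do not say whether the 3 libraries of a group came from separate cultures or animals, so the p-values measure the spread between these libraries, which may be technical.

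Lysosomes break down material from phagocytosis, endocytosis and autophagy, and macrophages are rich in them because they clear dead cells and debris. Their enzymes work at acid pH, which the V-ATPase maintains. Its V1 sector splits ATP in the cytosol and its V0 sector moves protons across the membrane. The factors TFEB, TFE3 and MITF bind E-box motifs, among them the CLEAR element, found near many lysosomal genes, and they move into the nucleus when mTORC1 at the lysosome is inactive. Their activity is therefore set largely by phosphorylation and location, neither of which RNA shows.

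*Cd177* itself ran against the labels, at 0.544, 0.309 and 0.521 FPKM where the label says WT and 1.79, 1.84 and 2.28 FPKM where it says KO (log2 fold change 1.37, SE 0.16, adjusted p = 0.000827, limma). Since the BMDMs carry the intact gene, this does not check their genotype, and directions are given between libraries as labelled (under the WT or the KO label below). Of 20 neutrophil markers, 14 were tested, and 12 were higher and 1 (*Mmp8*) lower in libraries labelled KO as deposited (85.7% and 7.14%, against 27.1% and 10.5% of all tested genes), and 11 were higher and 1 lower after the second scaling described below (78.6% and 7.14%, against 15.4% and 16.9%). The summed level of the 20 was 203 to 263 FPKM under the WT label and 561 to 576 FPKM under the KO label. The markers not tested, all low, went both ways. *Ly6g* was listed at 0 throughout the WT label and at 0.660, 0.547 and 0.403 FPKM under the KO label. *Mpo* and *Prtn3* also had higher means under the KO label. *Elane* (means 0.317 and 0.138 FPKM under the WT and KO labels), *Ctsg* (0.282 and 0.134) and *Stfa1* (0.456 and 0.0266) had lower ones. Of 10 macrophage markers, all tested, 2 (*Adgre1* and *Mertk*) were higher as deposited and not after scaling, and 2 were lower (*Cd14* and *Fcgr1*), with summed levels of 6825 to 8181 and 7415 to 8119 FPKM. *Cd4* was higher and was the only one of 10 lymphocyte markers tested, none of 6 dendritic cell markers reached the level for testing, and of 10 spinal cord markers 2 were tested and neither was called. The part that RNA of neutrophils or of other cells plays in the results below was not tested, and in bulk RNA fewer cells of a type and less RNA per cell cannot be told apart.

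The FPKM columns summed to between 302532 and 340717. The correlation between libraries across tested genes was 0.967 to 0.985 within the group labelled WT, 0.977 to 0.984 within that labelled KO and 0.905 to 0.917 across. WT replicate 3 stood apart most by transcript length: its log2 levels deviated from the other libraries labelled WT by a median of 0.22 for transcripts under 2118 bases and -0.25 for those over 3945 bases. KO replicate 3 deviated from the others labelled KO in the same directions and by less, at 0.08 and -0.11. Each result that rests on WT replicate 3 is given below with and without that library where its call changes.

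Differences are log2(FPKM + 0.5) in libraries labelled KO minus those labelled WT, tested with limma over 13367 genes and called at a Benjamini-Hochberg adjusted p under 0.05. The choice of scaling matters for genes with small differences. As deposited, the median of all tested genes was 0.19, and 27.1% of genes were called higher and 10.5% lower, 37.6% in all, so that 72.0% of all calls were higher. After median-of-ratios scaling, which sets the typical gene equal between libraries, the median was -0.01, with 15.4% called higher and 16.9% lower (32.3% in all), and 47.7% of calls were higher. Those of the 45 genes that were called as deposited therefore have their differences given on both scales, and other differences are as deposited unless stated. Calls under further scalings and with the replicate block are given with the dependence on processing.

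Of the 21 enzymes, 14 (66.7%, against 27.1% of all tested genes) were higher and 2 (9.52%, against 10.5%) were lower in the libraries labelled KO. Under median-of-ratios scaling 9 stayed higher (42.9%, against 15.4%) and the same 2 stayed lower (9.52%, against 16.9%). The median difference of the 21 was 0.45 as deposited and 0.22 after scaling. Of the 13 V-ATPase subunits, 3 were higher (23.1%) and 1 lower (7.69%) as deposited, whereas 1 was higher (7.69%) and 6 lower (46.2%) after scaling. Their median was -0.12 as deposited and -0.35 after scaling. Of the 8 other lysosomal proteins, 1 was higher and 1 lower as deposited (12.5% each), and after scaling limma called none higher and the same 1 lower. At an unadjusted p under 0.05 from limma after scaling, none was higher and 3 were lower. Of the 3 MiT/TFE factors, *Tfeb* and *Mitf* were higher on both scales and *Tfe3* was not called on either. Over all 45 genes, 20 were higher and 4 lower as deposited, 12 were higher and 9 lower after scaling, and 12 were higher and 4 lower on both, where 15.4% and 10.5% of all tested genes were. For 33 of the 45 genes, and for 51.9% of all tested genes, the groups were without overlap.

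**Figure D1:**
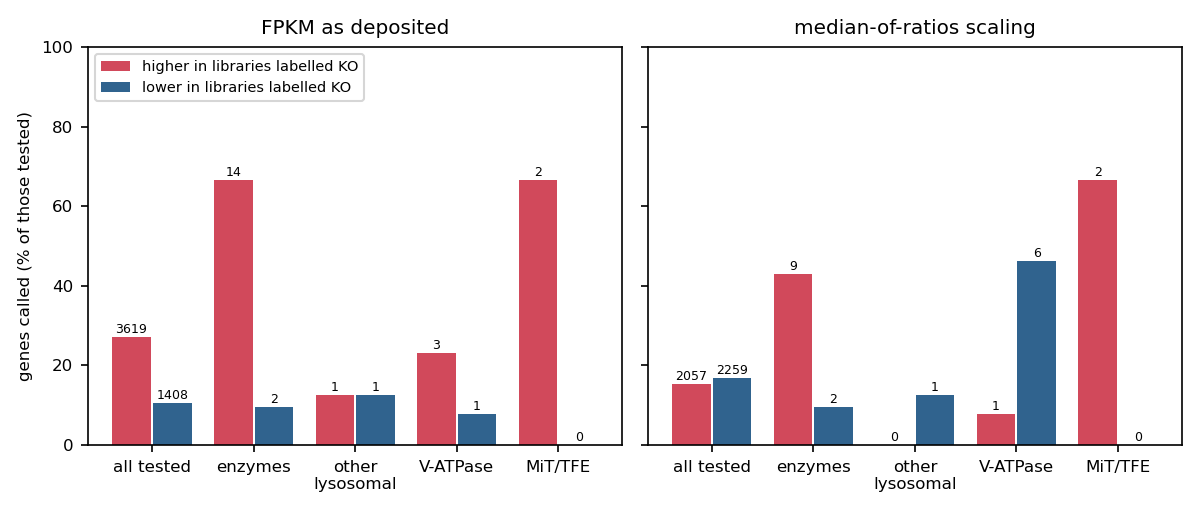
Percentage of tested genes called higher (red) or lower (blue) in libraries labelled KO for all 13367 tested genes and each group of lysosomal genes, with FPKM as deposited (left) and after median-of-ratios scaling (right). The number on each bar is the count of genes. Among the enzymes 14 and then 9 genes were higher, whereas the V-ATPase changed from 3 higher and 1 lower to 1 higher and 6 lower.

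Reference promoters, from 250 bases before to 50 bases after an annotated start (RefSeq, GRCm38.p6), were matched for 38 of the 45 genes; *Atp6v0d2*, *Asah1*, *Atp6v1c1*, *Atp6v1h*, *Npc1*, *Atp6v1b2* and *Galns* had no entry. The E-box CACGTG, the core of the CLEAR element, occurred in the promoters of 13 of the 38 genes (34.2%), against 8.09% of 27025 genes with an entry. The longer TCACGTGA, which contains it, occurred in 6 (15.8%, against 1.12%), and the whole CLEAR palindrome, with a further base on each side, in 1, *Cln3* (2.63%, against 0.37%). TCATGTGA, another E-box, occurred in 5 (13.2%, against 1.15%), namely *Gla*, *Tpp1*, *Ppt1*, *Grn* and *Atp6v0c*. Both strands were searched, a gene was counted once over all its starts, and CACGTG, TCACGTGA and the CLEAR palindrome each read the same on both strands. The 27025 genes were not limited to those tested here. The CLEAR element is known from lysosomal genes, so its excess among the 38 is no result of these data. One 30-base window per gene with CACGTG is shown because this motif is the core of the CLEAR element. Windows with TCATGTGA are not shown. Each window is written 5′ to 3′ on the strand of the gene, with the motif in capitals (TCACGTGA where the longer motif is present, otherwise CACGTG).
*Sgsh*, chr11:119355522-119355551, minus strand: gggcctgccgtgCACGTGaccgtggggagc
*Naglu*, chr11:101070009-101070038, plus strand: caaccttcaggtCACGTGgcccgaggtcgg
*Arsa*, chr15:89477423-89477452, minus strand: tcaactcagtgtCACGTGttgtctgctcct
*Glb1*, chr9:114401018-114401047, plus strand: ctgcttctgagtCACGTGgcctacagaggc
*Gaa*, chr11:119267811-119267840, plus strand: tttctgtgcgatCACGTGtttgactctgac
*Gla*, chrX:134601215-134601244, minus strand: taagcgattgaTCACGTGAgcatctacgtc
*Lamp1*, chr8:13159088-13159117, plus strand: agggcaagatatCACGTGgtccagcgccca
*Mcoln1*, chr8:3500462-3500491, plus strand: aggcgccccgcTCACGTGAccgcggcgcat
*Cln3*, chr7:126583340-126583369, minus strand: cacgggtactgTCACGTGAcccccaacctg
*Atp6v0b*, chr4:117887348-117887377, minus strand: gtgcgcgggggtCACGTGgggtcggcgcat
*Atp6v0d1*, chr8:105566050-105566079, minus strand: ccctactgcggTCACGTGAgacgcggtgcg
*Atp6v0e*, chr17:26676387-26676416, plus strand: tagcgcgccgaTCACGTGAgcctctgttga
*Atp6v1a*, chr16:44139373-44139402, minus strand: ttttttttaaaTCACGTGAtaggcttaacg

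Of the 13 genes with CACGTG 5 were higher and 1 lower as deposited, with a median difference of 0.13, and of the 25 without it 13 were higher and 3 lower, with a median of 0.36, where 27.1% of all tested genes were higher and 10.5% lower with a median of 0.19. On both scales 2 of the 13 (*Sgsh* and *Arsa*) and 10 of the 25 were higher, where 15.4% of all tested genes were. Of the 6 genes with TCACGTGA, 1 was higher as deposited (*Atp6v1a*, not called after scaling) and 1 lower (*Gla*), with a median of 0.03, and of the 32 without it 17 were higher and 3 lower, with a median of 0.34. Of the 5 genes with TCATGTGA, 2 were higher and 2 lower as deposited, with a median of 0.0349, and of the 33 without it 16 were higher and 2 lower, with a median of 0.23. *Lamp1* held CACGTG 4 times close before its start, as the 250 bases upstream show (chr8:13158911-13159160, plus strand, motifs in capitals).
*Lamp1* upstream: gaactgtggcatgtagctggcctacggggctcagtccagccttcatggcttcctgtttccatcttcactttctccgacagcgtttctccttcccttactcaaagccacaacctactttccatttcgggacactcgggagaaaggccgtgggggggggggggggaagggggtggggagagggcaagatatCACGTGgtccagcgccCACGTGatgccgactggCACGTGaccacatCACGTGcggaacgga
These are matches of letters in the reference sequence, and binding was not measured.

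Among enzymes that take glycosaminoglycans apart, one that acts on heparan sulfate showed the largest rise of all 45 genes. *Sgsh* (chromosome 11, 119343425 to 119355536, gene positions being those of GENCODE M21 on GRCm38), the sulfamidase that removes N-linked sulfate from heparan sulfate, stood at 3.41, 2.53 and 2.11 FPKM under the WT label and 20.8, 21.2 and 18.6 FPKM under the KO label. All libraries labelled KO lay far above all labelled WT. The mean was 7.52-fold higher, with a log2 difference of 2.72 (SE 0.16, adjusted p = 4.08e-05) as deposited and 2.51 after scaling. The neighbour *Slc26a11*, a sulfate transporter gene that starts beside *Sgsh* on the opposite strand and was looked up after these values were seen, rose as well, from 3.85, 3.35 and 2.99 FPKM to 16.5, 16.4 and 14.9 FPKM (log2 difference 2.08, SE 0.11, adjusted p = 2.71e-05, and 1.87 after scaling).

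*Ids* (chromosome X, 70343069 to 70365084), iduronate 2-sulfatase, which acts on heparan and dermatan sulfate, was at 8.27, 8.58 and 6.87 FPKM under the WT label and 20.1, 21.0 and 19.5 FPKM under the KO label, a 2.55-fold rise (log2 difference 1.30, SE 0.10, adjusted p = 0.000184, and 1.08 after scaling). *Arsb* (chromosome 13, 93771630 to 93943016), arylsulfatase B of dermatan and chondroitin sulfate, was at 4.79, 4.99 and 3.91 FPKM against 7.52, 8.95 and 6.98 FPKM (0.72, SE 0.13, adjusted p = 0.00619, and 0.50 after scaling). The groups of both sulfatases were apart by more than the spread within them. *Gusb*, beta-glucuronidase, rose from 78.8 ± 2.58 FPKM (SD, n = 3) to 114 ± 2.40 FPKM (SD, n = 3), a log2 difference of 0.53 as deposited and 0.30 after scaling. *Naglu*, the N-acetylglucosaminidase of heparan sulfate, rose as deposited, by 0.50 (adjusted p = 0.00801), and was not called after scaling (0.28, adjusted p = 0.0625). *Galns*, the sulfatase of keratan sulfate, passed the threshold by little as deposited (0.32, adjusted p = 0.0429) and not after scaling (0.09, adjusted p = 0.521). Its call also ended without WT replicate 1 (adjusted p = 0.106), WT replicate 2 (0.111), KO replicate 1 (0.147) or KO replicate 2 (0.12). *Idua*, the iduronidase that acts after *Ids* on the same chains, was at 7.67, 6.75 and 5.77 FPKM against 6.71, 7.32 and 5.70 FPKM. Its groups overlapped, and its difference was -0.03 (SE 0.14, adjusted p = 0.883) as deposited and -0.24 after scaling.

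Enzymes that trim the sugars of glycoproteins moved in both directions. *Manba* (chromosome 3, 135485611 to 135571404), beta-mannosidase, was at 4.61, 4.62 and 4.74 FPKM under the WT label and 9.39, 8.48 and 9.40 FPKM under the KO label, a 1.95-fold rise (log2 difference 0.89, SE 0.09, adjusted p = 0.000382, and 0.68 after scaling). *Man2b1* (chromosome 8, 85083270 to 85098282), lysosomal alpha-mannosidase, was at 72.3, 70.5 and 54.2 FPKM against 110 (replicate 1), 112 (replicate 2) and 97.6 FPKM (0.70, SE 0.13, adjusted p = 0.00619, and 0.47 after scaling). Both mannosidases were higher in each library labelled KO than in any labelled WT. *Neu1* (chromosome 17, 34931253 to 34935953), the sialidase that removes terminal sialic acid, went the other way, at 33.1, 33.6 and 33.8 FPKM against 26.0, 26.7 and 25.8 FPKM. This fall was small but far larger than the spread of either group (-0.35, SE 0.07, adjusted p = 0.00821, and -0.58 after scaling). *Fuca1*, alpha-fucosidase, had 42.3 ± 3.36 and 49.9 ± 2.36 FPKM and was not called (0.24, adjusted p = 0.079, and 0.01 after scaling), although it was when rescaled to TPM (0.25, adjusted p = 0.0303), with quantile normalization (0.25, adjusted p = 0.0296) and without WT replicate 3 (0.30, adjusted p = 0.0187).

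Enzymes of glycolipids and other lipids held the most abundant enzyme that rose and the largest fall among the 45 genes. *Hexa* (chromosome 9, 59539540 to 59565109), the alpha subunit of beta-hexosaminidase, which breaks down GM2 ganglioside, was at 260, 253 and 278 FPKM under the WT label (replicates 1 to 3) and 430, 419 and 464 FPKM under the KO label. The rise was 1.66-fold (log2 difference 0.73, SE 0.08, adjusted p = 0.000821, and 0.50 after scaling), and the groups did not overlap. *Lipa* (chromosome 19, 34492318 to 34527474), lysosomal acid lipase, which splits cholesteryl esters and triglycerides, was at 156, 155 and 133 FPKM against 242, 245 and 224 FPKM (0.68, SE 0.09, adjusted p = 0.00182, and 0.45 after scaling). *Arsa* (chromosome 15, 89472476 to 89477425), the sulfatase of sulfatide, a lipid of myelin, was low and at 6.34, 5.80 and 6.02 FPKM against 10.1, 8.79 and 9.92 FPKM (0.62, SE 0.09, adjusted p = 0.00254, and 0.41 after scaling).

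*Gla* (chromosome X, 134588149 to 134601125), alpha-galactosidase A, which removes the terminal galactose of globotriaosylceramide, was at 85.0, 82.5 and 102 FPKM under the WT label and 42.2, 44.4 and 50.7 FPKM under the KO label. Every library labelled KO lay below every library labelled WT, and the mean was 1.96-fold higher in the latter (log2 difference -0.96, SE 0.12, adjusted p = 0.000979, and -1.19 after scaling). Its promoter held TCACGTGA, shown above, as well as TCATGTGA. *Glb1*, beta-galactosidase, had 29.0 ± 0.243 and 31.9 ± 1.59 FPKM (SD, n = 3 each) and was not called, at 0.13 as deposited and -0.09 after scaling. *Smpd1*, acid sphingomyelinase, was higher as deposited and not called after scaling (0.36, adjusted p = 0.0324, and 0.14 with adjusted p = 0.375 after scaling), and the call ended without WT replicate 2 (adjusted p = 0.0887) or without KO replicate 1 (0.0719), 2 (0.0946) or 3 (0.0955). *Asah1*, acid ceramidase, was at 83.9, 89.9 and 93.4 FPKM against 93.5, 122 and 123 FPKM. Its groups only just did not overlap and it was not called (0.33, adjusted p = 0.0788, and 0.10 after scaling), whereas without KO replicate 1 it was (0.46, adjusted p = 0.0239).

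The other enzymes act on proteins and glycogen. *Tpp1*, tripeptidyl peptidase, was higher as deposited and not called after scaling (0.36, adjusted p = 0.0295, and 0.13 with adjusted p = 0.32 after scaling), and the call ended without WT replicate 1 (adjusted p = 0.0539) or without KO replicate 1 (0.0923), 2 (0.0953) or 3 (0.0701). *Ppt1*, the thioesterase that removes palmitate from proteins, was higher as deposited and not called after scaling (0.45, adjusted p = 0.00446, and 0.22 with adjusted p = 0.0967 after scaling). It overlaps *Cap1*, which lies on the opposite strand at 144, 142 and 124 FPKM against 192, 194 and 178 FPKM, a difference of 0.46, and since the strand of the libraries is not stated, the value of *Ppt1* is uncertain. *Gaa*, acid alpha-glucosidase of glycogen, was at 30.7, 29.9 and 20.9 FPKM against 27.5, 28.6 and 25.5 FPKM. Its groups overlapped, with a difference of 0.02 (SE 0.15, adjusted p = 0.929) as deposited and -0.20 after scaling.

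**Figure D2:**
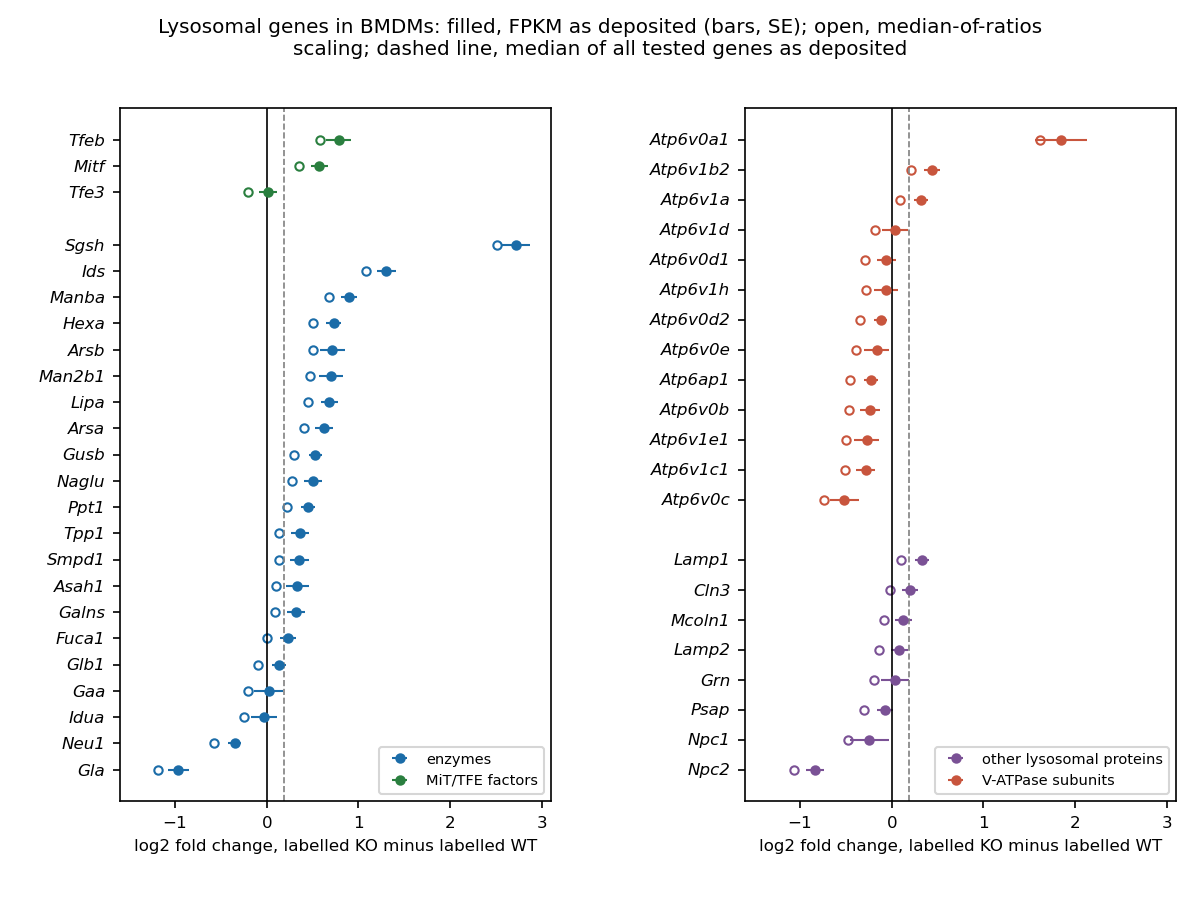
Log2 difference of each of the 45 genes, libraries labelled KO minus WT, for enzymes and MiT/TFE factors (left) and for V-ATPase subunits and other lysosomal proteins (right). Filled points are FPKM as deposited with bars of 1 SE, open points are values after median-of-ratios scaling, and the dashed line marks the median of all tested genes, 0.19. *Sgsh* at 2.72 and *Atp6v0a1* at 1.84 lie farthest to the right, and *Gla* at -0.96 farthest to the left.

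The summed level of the 21 enzymes was 1021 to 1039 FPKM under the WT label and 1410 to 1452 FPKM under the KO label, or 0.30% to 0.34% and 0.45% to 0.47% of all FPKM. *Hexa* alone made up 264 ± 12.9 and 437 ± 23.9 FPKM of it (SD, n = 3 each). Of a further list of 25 lysosomal enzymes, all were tested. As deposited 10 were higher and 3 lower (40.0% and 12.0%, against 27.1% and 10.5% of all tested genes). After scaling 10 were higher and 4 lower (40.0% and 16.0%, against 15.4% and 16.9%). Their median was 0.20 as deposited and 0.05 after scaling. The largest differences among those called were all rises. *Pla2g15*, a lysosomal phospholipase, was at 33.8, 32.2 and 35.9 FPKM against 82.2, 88.8 and 92.9 FPKM (log2 difference 1.36, SE 0.09, adjusted p = 5.74e-05). *Arsg*, the sulfatase that acts on the glucosamine 3-sulfate of heparan sulfate, was low, at 0.755, 0.639 and 0.482 FPKM against 2.30, 1.78 and 1.97 FPKM (1.16, SE 0.15, adjusted p = 0.00131). It overlaps *Slc16a6*, which lies on the opposite strand with a mean of 6.22 FPKM over all libraries. Since the strand of the libraries is not stated, the value of *Arsg* is uncertain. *Galc*, which breaks down the myelin lipid galactosylceramide, was at 5.91, 5.86 and 6.03 FPKM against 12.96, 13.6 and 13.2 FPKM (1.10, SE 0.08, adjusted p = 9.91e-05). All 3 were also called higher after scaling, at 1.13, 1.01 and 0.88. Among the lower genes were *Scpep1* and *Smpdl3a*, named after their values were seen.

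Of the 8 lysosomal proteins that are not enzymes, only *Lamp1* and *Npc2* were called. *Npc2* (chromosome 12, 84754562 to 84773152), the soluble protein that hands cholesterol on for export from the lysosome, was at 239, 235 and 284 FPKM under the WT label and 138 (replicates 1 and 2) and 148 FPKM under the KO label. The libraries labelled KO lay well below the others (log2 difference -0.83, SE 0.10, adjusted p = 0.000941, and -1.06 after scaling). Its membrane partner *Npc1* was at 33.2, 34.9 and 21.8 FPKM against 27.5, 27.5 and 19.8 FPKM. There replicate 3 of each group was lowest, the groups overlapped, and the difference of -0.25 was not called (SE 0.21, adjusted p = 0.403, and -0.47 after scaling).

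*Lamp1* (chromosome 8, 13159161 to 13175338), a main glycoprotein of the lysosomal membrane, was at 534, 539 and 562 FPKM under the WT label and 677, 661 and 715 FPKM under the KO label. It was higher as deposited (0.33, SE 0.08, adjusted p = 0.0174) and not called after scaling (0.10, adjusted p = 0.475). The call also ended without WT replicate 1 (adjusted p = 0.0686), WT replicate 2 (0.0536) or KO replicate 1 (0.0755), 2 (0.0595) or 3 (0.06). *Lamp2*, its companion in the membrane and in chaperone-mediated autophagy, had 57.7 ± 4.93 and 61.1 ± 2.27 FPKM (SD, n = 3 each) and was not called, at 0.08 as deposited and -0.14 after scaling. *Psap*, the precursor of the saposins that present lipids to the enzymes, was by far the most abundant of the 45 genes, at 3832, 3630 and 3851 FPKM against 3619, 3531 and 3614 FPKM. Its groups were nearly touching, and it was not called (-0.07, adjusted p = 0.564, and -0.30 with adjusted p = 0.0775 after scaling). *Grn*, progranulin, had 271 ± 52.2 and 275 ± 15.9 FPKM with overlapping groups and was not called, at 0.03 as deposited and -0.19 after scaling. *Mcoln1*, a lysosomal calcium channel, and *Cln3*, a membrane protein of the lysosome, were not called either, at 0.13 and 0.20 as deposited and -0.09 and -0.02 after scaling. *Cln3* overlaps *Apobr* on the opposite strand, which was at 9.05, 7.999 and 7.26 FPKM against 14.8, 17.1 and 15.7 FPKM, a difference of 0.93.

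Of a further list of 15 lysosomal membrane and associated proteins, all tested, 3 were higher and 2 (13.3%) lower as deposited, where 27.1% and 10.5% of all tested genes were, and 3 were higher and 3 lower after scaling, where 15.4% and 16.9% were. The 3 that were higher are given as the largest differences among those called. *Tpcn1*, a cation channel of endosomes and lysosomes, was at 3.34, 3.93 and 2.16 FPKM against 17.3, 16.9 and 13.6 FPKM (log2 difference 2.20, SE 0.20, adjusted p = 0.000323). *Tmem175*, a potassium and proton channel of the lysosome, was at 2.92, 2.76 and 3.16 FPKM against 5.86, 6.25 and 6.23 FPKM (0.94, SE 0.09, adjusted p = 0.000417). *Laptm5*, a lysosomal protein of blood cells, was at 218, 235 and 186 FPKM against 382, 392 and 339 FPKM (0.80, SE 0.11, adjusted p = 0.00199). These genes were also called higher after scaling, at 1.99, 0.74 and 0.57. Among the lower genes, named after their values were seen, were *Clcn7* and, after scaling only, *Glmp*.

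**Figure D3:**
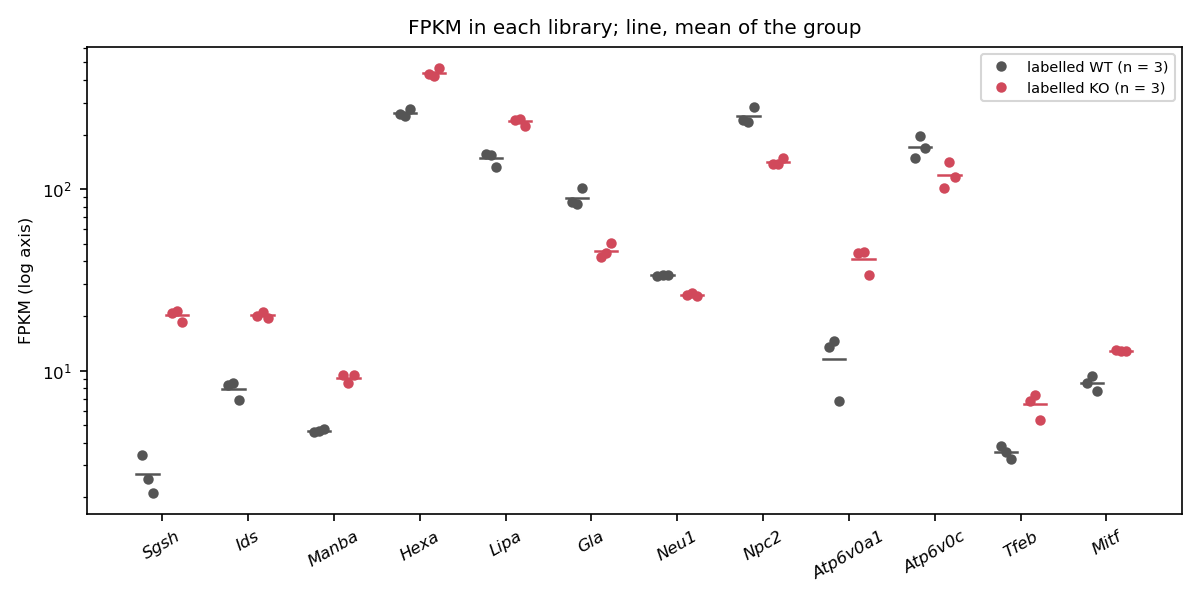
FPKM (log axis) of 12 called genes in each library, with 3 grey points for libraries labelled WT, 3 red points for those labelled KO and a line at each group's mean. The 12 were picked from genes called as deposited, so that their groups lie apart is no further result. For 51.9% of all tested genes the groups do not overlap either. WT replicate 3 of *Atp6v0a1*, at 6.75 FPKM, lies apart from the other libraries of its group.

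Within the V-ATPase, 1 subunit stood out from the rest. *Atp6v0a1* (chromosome 11, 101009452 to 101063719), 1 of the alternative a subunits of V0 that guide the pump to its membrane, was at 13.4, 14.5 and 6.75 FPKM under the WT label and 44.4, 45.2 and 33.7 FPKM under the KO label. Replicate 3 was lowest in both groups, and the groups were still far apart. The mean was 3.56-fold higher (log2 difference 1.84, SE 0.28, adjusted p = 0.00289, and 1.62 after scaling), and leaving out any library gave 1.51 to 2.04.

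None of the other V0 subunits measured here was called higher on either scale. *Atp6v0c* (chromosome 17, 24163866 to 24169702), the proteolipid that forms most of the rotating ring, was at 148, 196 and 169 FPKM under the WT label and 102, 141 and 117 FPKM under the KO label. The highest library labelled KO lay just under the lowest labelled WT (-0.51, SE 0.15, adjusted p = 0.037, and -0.74 with adjusted p = 0.0117 after scaling). This call ended without WT replicate 2 (-0.41, adjusted p = 0.105), WT replicate 3 (-0.52, 0.0559), KO replicate 1 (-0.40, 0.12) or KO replicate 3 (-0.50, 0.0917). *Atp6v0b*, the other proteolipid member, had 132 ± 10.8 and 112 ± 13.02 FPKM with overlapping groups, and *Atp6v0d2*, a d subunit of the stalk abundant in macrophages and osteoclasts, had 155 ± 4.36 and 143 ± 1.76 FPKM (SD, n = 3 each). Both were not called as deposited and were called lower after scaling, at -0.47 and -0.35. *Atp6v0d1*, the widely expressed d subunit, and *Atp6v0e*, a small membrane subunit, overlapped between groups and were not called on either scale.

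The subunits of V1, which hold the ATPase activity, were less uniform. The catalytic subunit A gene *Atp6v1a* (chromosome 16, 44085402 to 44139705) was at 76.8, 80.5 and 71.9 FPKM under the WT label and 97.6, 95.7 and 93.4 FPKM under the KO label, without overlap. Its partner *Atp6v1b2* (chromosome 8, 69088646 to 69113711), the B subunit with which A forms the hexameric head, was at 74.9, 76.7 and 86.3 FPKM against 106, 104 and 114 FPKM, also without overlap. Both were higher as deposited, by 0.32 (SE 0.08, adjusted p = 0.0174) and 0.44 (SE 0.09, adjusted p = 0.0081), and neither was called after scaling, at 0.09 and 0.22. The call of *Atp6v1a* also ended without WT replicate 1 (adjusted p = 0.0559), KO replicate 1 (0.0786) or KO replicate 2 (0.0696). *Atp6v1c1* and *Atp6v1e1*, genes of the C and E subunits of the stalks, had 35.9 ± 4.14 against 29.3 ± 2.03 FPKM and 56.3 ± 10.4 against 46.1 ± 3.55 FPKM (SD, n = 3 each). They were not called as deposited and were called lower after median-of-ratios scaling, at -0.51 and -0.50, as was the accessory subunit gene *Atp6ap1* at -0.45. *Atp6v1c1* and *Atp6ap1* were also lower after upper-quartile scaling (-0.37, adjusted p = 0.0368, and -0.31, adjusted p = 0.0182). *Atp6v1c1* was lower when rescaled to TPM as well (-0.27, adjusted p = 0.0409), and *Atp6ap1* without WT replicate 3 (-0.26, adjusted p = 0.0147). The genes of the D subunit, *Atp6v1d*, and the regulatory H subunit, *Atp6v1h*, overlapped between groups and were not called on either scale.

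Paralogs of members were set beside them. The a subunit has 4 genes, and *Tcirg1*, whose product serves the osteoclast and the lysosome of immune cells, held most of their summed FPKM. *Tcirg1* was at 145, 143 and 124 FPKM under the WT label and 87.6, 94.6 and 92.8 FPKM under the KO label (log2 difference -0.58, SE 0.09, adjusted p = 0.00327, and -0.80 after scaling), opposite in direction to *Atp6v0a1*. *Atp6v0a2*, the a subunit best known from the Golgi, was at 11.9, 8.53 and 5.74 FPKM against 8.63, 6.59 and 5.81 FPKM and was not called (-0.26, adjusted p = 0.476, and -0.47 after scaling). The share of *Atp6v0a1* in the sum was 7.20% ± 1.99 under the WT label and 29.3% ± 3.35 under the KO label (SD, n = 3 each), and that of *Tcirg1* 87.4% ± 3.04 and 65.7% ± 4.005. The groups did not overlap for either share, and the exact permutation p (two-sided) was 0.1, the smallest that 3 against 3 libraries can give. The summed FPKM of the 4 genes was 157 ± 18.6 and 140 ± 7.02 (exact permutation p = 0.3), with overlapping groups. Such shares do not depend on the scaling between libraries by a single factor. The d subunits, in contrast, kept similar shares, with *Atp6v0d2* at 61.0% ± 2.29 and 60.0% ± 1.91 of the pair (exact permutation p = 0.6). Of 13 further V-ATPase genes, 7 were tested, and *Tcirg1* was the only one called as deposited (14.3% lower, against 10.5% of all tested genes). It was joined by *Atp6ap2*, also lower, after scaling (28.6%, against 16.9%). None of the 7 was called higher by limma or had an unadjusted p under 0.05 in that direction on either scale. In the lower direction, 2 had such a p as deposited and 4 after scaling. As deposited, 6321 of the 13367 tested genes had one in either direction. Of 10 markers of osteoclasts, a cell type whose pump and proteases overlap with those of macrophages, 7 were tested. As deposited 1 was higher (*Tnfrsf11a*) and 3 lower (*Acp5*, *Ctsk* and *Dcstamp*), or 14.3% and 42.9%, against 27.1% and 10.5% of all tested genes. After scaling 1 was higher and 4 lower, with *Itgb3* added, or 14.3% and 57.1%, against 15.4% and 16.9%. The summed level of the 10 was 94.5 to 99.5 FPKM under the WT label and 73.9 to 76.2 FPKM under the KO label, with *Calcr* listed at 0 throughout. The part of osteoclast markers in the fall of *Tcirg1* was not tested.

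**Figure D4:**
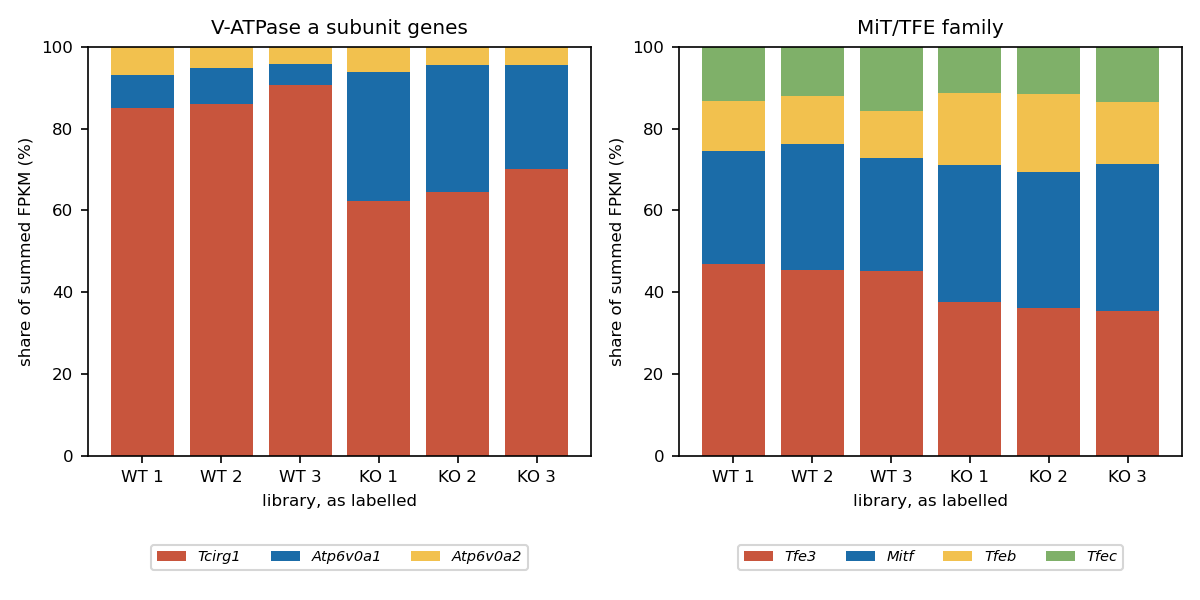
Share (%) of each paralog in the summed FPKM of its family in each of the 6 libraries, for the V-ATPase a subunit genes (left, the fourth gene *Atp6v0a4* being under 0.1%) and the MiT/TFE family (right). The share of *Atp6v0a1* is 4.96% to 8.75% under the WT label and 25.5% to 31.6% under the KO label, and that of *Tfe3* averages 45.8% and 36.4%.

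The MiT/TFE factors were themselves expressed at low to moderate levels. *Tfeb* (chromosome 17, 47737030 to 47792419) was at 3.83, 3.53 and 3.24 FPKM under the WT label and 6.76, 7.36 and 5.37 FPKM under the KO label. Every library labelled KO lay above every one labelled WT, and the mean was 1.84-fold higher (log2 difference 0.79, SE 0.13, adjusted p = 0.00446, and 0.58 after scaling). *Mitf* (chromosome 6, 97807052 to 98021349) was at 8.48, 9.38 and 7.67 FPKM against 12.96, 12.86 and 12.82 FPKM, again without overlap (0.57, SE 0.10, adjusted p = 0.00397, and 0.36 after scaling). *Tfe3* (chromosome X, 7762560 to 7775202) was at 14.4, 13.7 and 12.6 FPKM against 14.5, 13.96 and 12.6 FPKM. Its groups covered almost the same range, with a difference of 0.01 (SE 0.09, adjusted p = 0.933) as deposited and -0.21 (adjusted p = 0.112) after scaling. *Tfec*, the fourth gene of the family and one largely restricted to macrophages, was at 4.04, 3.62 and 4.33 FPKM against 4.35, 4.41 and 4.81 FPKM and was not called, at 0.16 as deposited and -0.04 after scaling.

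Within the family *Tfe3* and *Mitf* held the highest levels under both labels, whereas *Tfeb* lay below *Tfec* on average under the WT label and above it under the KO label. *Tfe3* was highest in libraries labelled WT, with 45.8% ± 0.935 of the summed FPKM, and also in those labelled KO, with 36.4% ± 1.08 (SD, n = 3 each). The share of *Mitf* was 28.7% ± 2.00 and 34.3% ± 1.46 and that of *Tfeb* 11.9% ± 0.444 and 17.2% ± 2.03, whereas that of *Tfec* was 13.5% ± 1.84 and 12.1% ± 1.24. The exact permutation p was 0.1 for *Tfe3*, *Mitf* and *Tfeb*, the smallest possible, and 0.3 for *Tfec*. In libraries labelled KO *Tfe3* and *Mitf* were close, at 35.5% to 37.6% and 33.3% to 36.0%. The summed level of the 4 genes was 29.6 ± 1.57 and 37.6 ± 1.70 FPKM.

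Of 18 genes that control these factors at the lysosome (the folliculin complex, Rag GTPases, Ragulator, mTORC1 and calcineurin subunits, with *Tfec* and *Zkscan3*), 17 were tested. As deposited limma called 2 higher (11.8%, against 27.1% of all tested genes) and none lower (against 10.5%). At an unadjusted p under 0.05 from limma, 3 were higher and none lower as deposited, and 2 were higher and 2 lower after scaling. As deposited, 6321 of the 13367 tested genes had such a p in either direction. At an adjusted p under 0.05 after scaling, 1 was higher (*Lamtor1*) and 1 lower (*Fnip2*), or 5.88% each, against 15.4% and 16.9%. *Lamtor1*, a Ragulator subunit that anchors mTORC1 to the lysosome, was at 33.0, 32.1 and 34.3 FPKM under the WT label and 48.2, 46.8 and 46.7 FPKM under the KO label, without overlap (0.51, SE 0.07, adjusted p = 0.00203, and 0.28 after scaling). *Flcn*, folliculin, which helps keep TFEB and TFE3 in the cytosol, was at 15.0, 14.9 and 7.66 FPKM against 20.9, 22.3 and 22.4 FPKM. WT replicate 3 was far below the other libraries of its group. *Flcn* was higher as deposited (0.84, SE 0.25, adjusted p = 0.0358) and not called after scaling (0.62, adjusted p = 0.0881). Without WT replicate 3 its difference was 0.53, and the call ended without KO replicate 1 (adjusted p = 0.0836), 2 (0.0976) or 3 (0.0888).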

How the data were processed

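RNA-seq libraries of sorted BMDMs, 3 a group, were analysed, and whether they keep strand is not stated. The submitters' processing notes name fastp 0.17.1, HISAT2 2.1.0, DESeq2 1.18.1 and R 3.4.3, and the quantifier, annotation and genome build are not given in the sources used here. The RNA reagent, library kit and sequencer in the labels are not those in the study's methods. The authors deposited FPKM for each gene and library, and the counts they tested with DESeq2 were not used here. FPKM is relative to the total, so abundant genes that change shift all others. Of 55335 identifiers, 55154 (99.7%) matched GENCODE M21 (GRCm38). Low values lay within 0.1 of whole multiples of a step in 39.9% to 43.5% of cases, too few to recover whole fragments for a count test, and the steps imply 17700000 to 20300000 fragments per library.

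The values log2(FPKM + 0.5), a scale that understates changes of low genes, were tested with limma 3.58.1 in R 4.3.3 (lmFit, eBayes with trend, two-sided, no covariates) over all 6 libraries for 13367 genes whose mean reached 0.5 FPKM, with Benjamini-Hochberg adjustment. On simulated data of 13367 genes, this recovered 92 of 100 genes given a log2 shift of 2 and 66 of 100 given a shift of 1. It made 6 false calls among the genes left unchanged, and none where no gene was changed. The simulated noise was drawn separately for each gene and few genes were changed, whereas 37.6% of genes were called in these data. These rates may therefore not hold here. Shares were compared by exact permutation. Tables and plots were made in Python 3.11.15 (pandas 2.3.3, matplotlib 3.10.9). Members and gene lists were chosen with earlier results of these data known. Values per library are given for all MiT/TFE factors and, in other groups, for up to 8 called members per direction, and in other lists for at most the 3 largest differences among called genes; other genes given per library were added after their values were seen. The alternatives were 4 other scalings, pseudocounts of 0.1 and 1, other filters, a robust variance, the replicate block and leaving out each library. Quantile normalization and leaving out libraries were added for the shares after the data were seen. Some genes counted in the further lists are not reported here by name.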

Additional observations from a re-analysis of the deposited data

How the results depend on the processing

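The rises of *Sgsh*, *Ids*, *Manba*, *Hexa*, *Arsb*, *Man2b1*, *Lipa*, *Arsa*, *Gusb*, *Atp6v0a1*, *Tfeb* and *Mitf* and the falls of *Gla*, *Neu1* and *Npc2* kept their direction and call under every alternative run in which the gene was tested. Counts of genes with small differences moved. Median-of-ratios scaling gave 9 enzymes higher, 0 other lysosomal proteins higher, 1 V-ATPase subunit higher and 6 lower, and 2057 genes higher and 2259 lower overall. Upper-quartile scaling gave 0 other lysosomal proteins higher and 3 V-ATPase subunits lower, quantile normalization 0 V-ATPase subunits lower, and no filter 0 other lysosomal proteins higher and 0 V-ATPase subunits lower. With a mean of at least 5 FPKM, 1756 genes were higher, as fewer were tested.

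Leaving out each library in turn gave 11 to 15 enzymes higher and 2 lower, 0 to 1 other lysosomal proteins higher and 1 lower, 2 to 3 V-ATPase subunits higher and 0 to 1 lower, and 2442 to 4228 genes higher and 1047 to 1717 lower overall. The share of *Tfe3* changed by -8.03 percentage points under quantile normalization and by -9.41 as deposited.

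Directions of genes that were not called reversed. Median-of-ratios scaling gave -0.0929 for *Glb1*, -0.20 for *Gaa*, -0.14 for *Lamp2*, -0.0881 for *Mcoln1*, -0.0219 for *Cln3*, -0.19 for *Grn*, -0.19 for *Atp6v1d*, -0.21 for *Tfe3* and -0.0433 for *Tfec*. Upper-quartile scaling gave -0.0652 for *Gaa*, -0.0031 for *Lamp2*, -0.0528 for *Grn*, -0.0497 for *Atp6v1d* and -0.0727 for *Tfe3*, and quantile normalization -0.0209 for *Mcoln1*, -0.0222 for *Atp6v1d*, -0.0654 for *Tfe3* and -0.0378 for *Tfec*. With a library left out, the ranges crossed 0 for *Idua* (-0.13 to 0.0624), *Gaa* (-0.15 to 0.12), *Grn* (-0.13 to 0.15), *Tfe3* (-0.0392 to 0.0669), *Atp6v1d* (-0.0666 to 0.18), *Atp6v0d1* (-0.13 to 0.00918) and *Atp6v1h* (-0.14 to 0.0593). The cause was not tested. Of members called as deposited, *Galns*, *Smpd1*, *Tpp1*, *Lamp1* and *Atp6v1a* lost their call after upper-quartile scaling, *Galns*, *Tpp1* and *Atp6v0c* when rescaled to TPM, *Galns*, *Smpd1*, *Tpp1*, *Atp6v0c* and *Atp6v1a* with quantile normalization, and *Galns*, *Smpd1*, *Tpp1*, *Lamp1* and *Atp6v0c* with no filter.

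The labels do not say that replicate numbers pair the libraries, and the deviations of same-numbered libraries correlated at 0.12, 0.04 and 0.26, while WT replicate 1 correlated best with KO replicate 2. With the replicate block, 16 enzymes were higher and 2 lower, 3 V-ATPase subunits higher and 4 lower, 1 other lysosomal protein higher and 2 lower, 2 MiT/TFE factors higher, and 4253 genes higher and 1681 lower overall. The block added as higher *Fuca1* (adjusted p = 0.0372) and *Asah1* (0.026), and as lower *Npc1* (0.0453), *Atp6v1c1* (0.0292), *Atp6v1e1* (0.0451) and *Atp6ap1* (0.0324). With 3 libraries a group and no counts, small differences in low genes are not resolved.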

Other observations

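Of 9 genes that tag or carry enzymes to the lysosome, all tested, 2 were higher and 1 lower in libraries labelled KO as deposited (22.2% and 11.1%, against 27.1% and 10.5% of all tested genes). After scaling *Gnptab* was lower too, which gave 2 higher and 2 lower (22.2% each, against 15.4% and 16.9%). *Sort1*, sortilin, a sorting receptor that delivers some enzymes without the mannose 6-phosphate tag, was at 7.69, 8.46 and 5.16 FPKM under the WT label and 24.1, 25.4 and 20.1 FPKM under the KO label (log2 difference 1.66, SE 0.19, adjusted p = 0.000758, limma). *M6pr*, the cation-dependent receptor for that tag, was at 91.4, 85.5 and 85.7 FPKM against 47.2, 48.4 and 47.0 FPKM (-0.87, SE 0.07, adjusted p = 0.000205). *Nagpa*, which uncovers the tag, was at 12.9, 11.7 and 8.90 FPKM against 28.7, 25.7 and 23.1 FPKM (1.184, SE 0.15, adjusted p = 0.00136). The groups of these 3 genes did not overlap, as was so for 51.9% of all tested genes, and their calls were the same after scaling.

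Of 15 autophagy genes known as targets of TFEB, 14 were tested. As deposited 2 were higher (*Ulk1* and *Bcl2*) and 2 lower (*Sqstm1* and *Vps18*), or 14.3% each, against 27.1% and 10.5% of all tested genes. After scaling the same 2 were higher (14.3%, against 15.4%) and 4 were lower (28.6%, against 16.9%), with *Vps8* and *Atg16l1* added. *Sqstm1*, the autophagy receptor p62, was abundant, at 255, 236 and 253 FPKM against 135, 145 and 151 FPKM (-0.79, SE 0.08, adjusted p = 0.000523). *Ulk1*, the kinase that starts autophagy, was at 6.93, 5.95 and 4.28 FPKM against 11.0, 11.5 and 9.43 FPKM (0.86, SE 0.18, adjusted p = 0.00899). *Bcl2*, an inhibitor of apoptosis, was low, at 1.11, 1.10 and 0.825 FPKM against 2.34, 2.13 and 1.96 FPKM (0.81, SE 0.13, adjusted p = 0.00358).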
